A study of Mus musculus with 3 samples.

Results

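Expression was compared between an array labelled as a soft tissue sarcoma taken from a mouse and an array labelled as sarcoma cells in culture. Every measured probe set with 1 gene symbol belongs to this comparison, 21789 of 28856 probe sets, which stand for 19938 mouse genes. The array labelled control carries RNA of a tumor cell line without doxycycline (0 microg/ml). The array labelled tumor carries RNA of a tumor cut out of a mouse that had been given doxycycline for 3 months. The only other array of the series, labelled high doxycycline, carries RNA of cultured cells 24 hours after 0.2 microg/ml doxycycline, and its values are printed beside the others as a description. All 3 come from EWS/ATF1-inducible animals, in which doxycycline switches on the EWS/ATF1 transgene, on a mixed background of the strains C57/BL6, 129 and ICR. All are labelled as tumor cells, the control included. Age, sex, the promoter behind the transgene and the number of cell lines are not stated in the labels. The submitters' descriptions open with the number 1297 for control and high doxycycline and with 1281 for tumor, and what these numbers stand for is not stated.

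EWS/ATF1 is the driver fusion of human clear cell sarcoma: the start of the RNA-binding protein EWSR1 is fused to the DNA-binding end of ATF1, one of the CREB transcription factors. CREB family factors bind the cyclic AMP response element (CRE) in promoters such as that of Fos, and cyclic AMP signalling normally switches them on, a need that the fusion bypasses. A solid tumor contains macrophages, vessels, fibroblasts and their matrix, and often the muscle it grows into, whereas a cell line in culture lacks these cells.

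The tissue genes went against the array labels. Most macrophage, endothelial and fibroblast genes, and many skeletal muscle genes, were brighter on the control array than on the other arrays. Above the array's own median lay 18 of 22 endothelial genes on control and 3 each on high doxycycline and tumor, and 10 of 15 thick filament genes against 1 and 0. By this count the contrast was smaller for fibroblast genes (20 of 22 against 10 and 11) and for thin filament genes (11 of 15 against 8 and 8). The defining macrophage gene Adgre1 (F4/80) read 378 on control against 61.6 on high doxycycline and 60.7 on tumor, on arrays whose medians over all probe sets were 226.7 on high doxycycline, 219.8 on tumor and, on the log2 scale, 7.97 on control. The fast muscle myosin Myh4 read 2534, 87.4 and 79.2 in the same order, and the endothelial cadherin Cdh5 read 2098, 135 and 106. The groups are therefore called by their labels, and each direction given here is that of the labels and holds only as far as the labels do. In bulk RNA, fewer cells of a type and less RNA per cell cannot be told apart. Intensities are linear, as deposited, and 3 values in a row always stand for control, high doxycycline and tumor, in that order. Folds are brighter over dimmer of intensity + 1, a call is a difference of at least 2-fold, and bright means above the array's own median.

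Each label has 1 array, so no difference could be tested, no replicate check exists and all folds and counts describe these arrays. A gene was used for the counts over all genes where its value on the brighter array exceeded that array's median, which 12010 of 19938 genes did. Of these, 2225 (18.5%) were at least 2-fold brighter on tumor and 1222 (10.2%) at least 2-fold dimmer, and 8563 lay within 2-fold. The median log2 difference was 0.075. The dimmer genes were fewer but went further: 175 were at least 8-fold dimmer and 77 at least 8-fold brighter, and 69 against 14 passed 16-fold. Because a member that is bright on 1 array only passes such a filter by its difference, the lists are counted over all measured members, without the filter. Over all 19938 genes without it, 2245 (11.3%) were at least 2-fold brighter, 1359 (6.82%) at least 2-fold dimmer and the median was -0.004. These are the shares against which each list below is to be read. For lists whose members nearly all passed the filter, the 18.5% and 10.2% of the genes used are the like shares. Exactly equal values on both arrays were held by 3074 genes (15.4%), for which no reason is given in the sources used here.

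Internal measures of error came from genes that should be silent and from genes measured more than once. Olfactory receptors, which sense odours and are hardly transcribed outside the nose, had 1027 measured genes and none was past 2-fold, with log2 differences from -0.99 to 0.25. None of 163 vomeronasal receptors and none of 42 defensins was past 2-fold either. These genes are dim and show the scatter of dim probe sets only. For 671 genes with several usable probe sets, the log2 differences of 1 gene's probe sets spanned a median of 0.384, and 141 genes (21.0%) spanned at least 1. Probe sets of the same gene passed 2-fold in opposite directions for 4 genes. A 2-fold difference of a single gene is thus within what probe sets of 1 gene can disagree by.

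**Figure D1:**
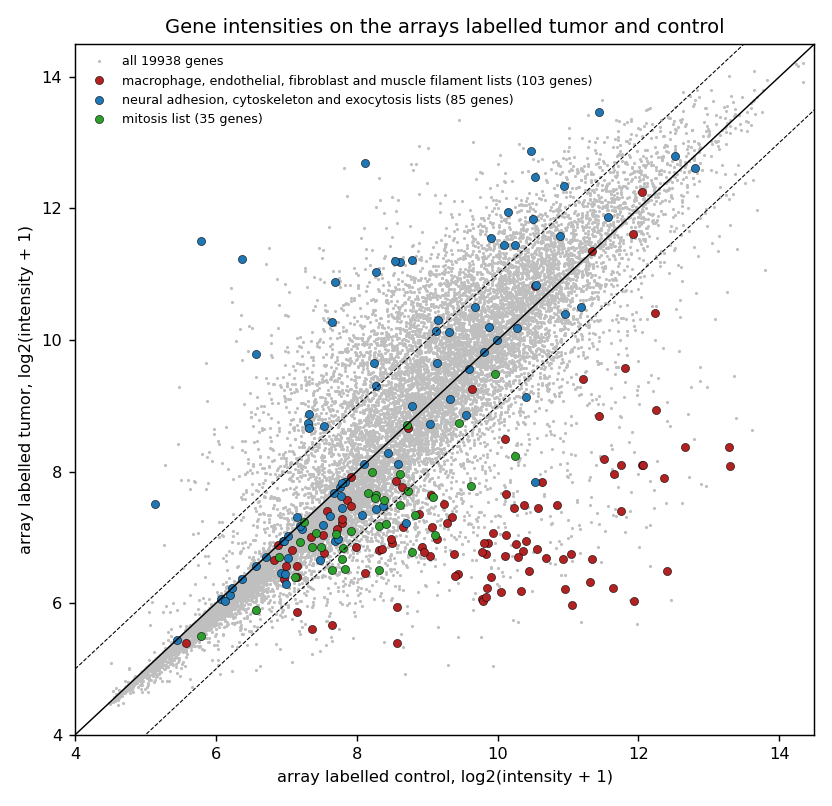
Intensity of each gene on the array labelled control (horizontal axis) and on the array labelled tumor (vertical axis), both as log2(intensity + 1), with 1 point per gene for all 19938 genes; the solid line marks equal values and the dashed lines 2-fold. Many members of the tissue lists (red) lie below the lower dashed line and others near the diagonal, most neural members past 2-fold (blue) lie above the upper dashed line, and the mitosis genes past 2-fold (green) lie below the lower one.

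The lists of tissue cells, muscle and matrix held 421 measured genes, of which 185 (43.9%) were at least 2-fold dimmer on tumor and 9 (2.14%) at least 2-fold brighter, with a median of -0.74. The immune effector lists (complement, chemokines, interferon and MHC class I genes) held 72 measured genes, with 29 dimmer and 3 brighter. The genes outside the tissue, immune, neural and cell cycle lists, 19103 in number, had 5.78% dimmer and 11.3% brighter. Of the 30 genes with the greatest loss of brightness, 19 belong to a list, and of the 30 with the greatest gain, 7 do.

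Macrophage genes were dimmer on tumor as a group. Of 29 measured macrophage and monocyte genes, 23 were bright on at least 1 of the 2 arrays, 24 were at least 2-fold dimmer on tumor and 0 brighter, with a median of -3.08. The lysozyme gene Lyz2 read 3932, 68.0 and 64.8, a 59.8-fold difference between control and tumor. The mannose receptor Mrc1, which macrophages use to take up glycoproteins, read 3175, 78.9 and 74.3 (42.2-fold). Csf1r, the receptor for the growth factor that keeps macrophages alive, read 1201, 214 and 173. Each of these genes read within 2-fold of its tumor value on high doxycycline. Cd14, the co-receptor for bacterial lipopolysaccharide, differed: it read 650.3, 914 and 158 and was bright on control and high doxycycline but not on tumor. Trem2 read 797, 733 and 610 and was the only 1 of the 23 bright members within 2-fold. Summed over the list, intensity was 38803 for control, 4718 for high doxycycline and 3444 for tumor. On control 23 of the 29 macrophage genes were above the array's median, on high doxycycline 3 and on tumor 2.

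Chemokine and complement genes followed the same order of arrays. The chemokine Ccl8, which attracts monocytes, showed the greatest loss of all genes used, with 5657, 67.8 and 65.2 and an 85.4-fold difference. Wfdc17, a gene named for a whey acidic protein domain, read 4057, 52.0 and 50.5 (78.8-fold), the acute phase gene Saa3 3769, 70.0 and 65.5 (56.7-fold) and the chitinase Chit1 4117, 125 and 115 (35.5-fold). Of 25 chemokine genes, 15 were dimmer and 0 brighter. Among them, Pf4, a product of platelets and macrophages, read 801, 65.9 and 58.8, and Cxcl13, which attracts B cells, read 1736, 148 and 147. Cxcl14 kept a high intensity on all 3 arrays, with 10384, 6946 and 4761. Of 15 complement genes, 11 were dimmer. C1qb, a chain of the recognition molecule C1q, read 5449, 104 and 89.2 (60.4-fold), and Serping1, the C1 inhibitor that many mesenchymal cells also make, read 7935, 192 and 219 (36.0-fold).

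Other blood cell lists were thinner. Of 14 neutrophil genes only 5 were bright on either array, and 8 of the 14 were dimmer, among them the calprotectin chains S100a8, with 1040.3, 96.1 and 75.6, and S100a9, with 2101, 141 and 129. Lcn2, which binds bacterial iron carriers, stayed bright on all arrays at 8597, 3756 and 4138, and this 2-fold difference is lost when the arrays are set to a common median. Cd74, the invariant chain of MHC class II, read 4577, 114 and 93.4 (48.5-fold), and 4 of 15 genes of the list of dendritic cells and MHC class II were dimmer. H2-Ab1, an MHC class II chain, stayed bright at 8072, 4949.8 and 3413. T and NK cell genes were near background: 3 of 19 were bright, and only Cd4, which macrophages can also carry, passed 2-fold, at 343, 139.9 and 135. The MHC class I pathway had 12 measured genes, all bright, and only the immunoproteasome subunit Psmb10 passed 2-fold, at 920.0, 517 and 436, a call that is lost at a common median.

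Vessel genes were dimmer as a group. Of 22 measured genes of blood endothelium, 18 were bright and 18 were at least 2-fold dimmer on tumor, with a median of -1.73 and none brighter. Kdr, the main receptor for the vessel growth factor VEGF-A, read 1955, 133 and 101 (19.2-fold). Pecam1, an adhesion molecule of endothelial junctions, read 1101, 119 and 105 (10.4-fold). Egfl7 and Plvap kept part of their brightness, with 3579.7, 1574 and 764 for Egfl7, a protein that endothelial cells secrete, and 2379.9, 524 and 681 for Plvap, the protein of fenestral diaphragms. Of 14 genes of pericytes and smooth muscle, 7 were dimmer. Pdgfrb, the receptor through which vessels recruit pericytes, read 1099.7, 169 and 187. Lyve1, a receptor of lymphatic vessels that some macrophages also carry, read 865, 104 and 108 and was the only 1 of 7 lymphatic genes past 2-fold.

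Skeletal muscle genes showed the same order of arrays in thick filament, thin filament and Z disc. Of 15 thick filament genes, 10 were at least 2-fold dimmer on tumor, of 15 thin filament genes 7, and of 15 genes of the Z disc and costamere 9, and none of these was brighter. The fast myosins Myh4 and Myh1 differed 31.6-fold and 26.9-fold, Myh1 reading 1991, 86.9 and 73.1. The skeletal actin Acta1 read 6481, 383 and 332 (19.5-fold), and Tnnt3, the troponin T of fast fibres, read 5276, 276 and 239 (22.0-fold). Actn2, which anchors actin in the Z disc, read 2769, 166 and 146. Flnc, a filamin that links the Z disc to the membrane, read 3599.8, 169 and 135 (26.5-fold). Other genes of fibre contraction differed as much: Atp2a1, the calcium pump of fast fibres, read 4605, 169.9 and 145 (31.5-fold) and the creatine kinase Ckm 4795, 238 and 209.5 (22.8-fold). The myogenic factor Myf6, which is kept in adult fibres, read 384, 118 and 117, while Myod1 read 241, 188 and 167 and was not bright on any array.

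Exceptions within the muscle lists ran the other way. Pln, which encodes phospholamban, the inhibitor of the calcium pump of heart and slow muscle, read 74.2, 448 and 1534, a 20.4-fold gain from control to tumor. Cox7a1, a muscle form of a cytochrome oxidase subunit that brown fat also makes, read 519, 878 and 2098 (4.03-fold). Both are the only members of their lists past 2-fold in that direction, 1 of 14 genes of excitation and calcium handling and 1 of 15 of muscle metabolism, beside 7 and 6 dimmer members.

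Connective tissue genes were dimmer too. Of 22 fibroblast genes, 20 were bright, 18 were at least 2-fold dimmer and none was brighter, with a median of -3.10. Both chains of type I collagen, the main fibre of connective tissue, were among the 30 greatest losses: Col1a1 read 10029.9, 343 and 332 (30.1-fold) and Col1a2 read 10078, 302 and 269.6 (37.2-fold). Lox, which crosslinks collagen, read 2126, 65.6 and 61.7 (33.9-fold), and Mmp2, a gelatinase, read 5383, 209 and 183 (29.3-fold). Of 44 collagen chains measured, 13 were dimmer and only Col10a1, the collagen of cartilage that is turning into bone, was brighter, at 222, 276 and 450.2. The basement membrane list had 11 dimmer of 20. Its nidogen gene Nid1, which links laminin to type IV collagen, read 1718, 116 and 122 (14.0-fold).

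Soluble and matricellular proteins of the matrix behaved alike, with exceptions. Of 21 genes of elastic fibres and matricellular proteins, 16 were dimmer, with Sparc, a collagen-binding protein, at 12545, 243 and 398 (31.4-fold). Its relative Sparcl1 was the only brighter member, at 5855, 11296 and 11943, a call that is lost under quantile normalization. Fn1, the fibronectin gene, lost brightness but stayed bright on all arrays, at 13110.0, 4996 and 4009. Among small leucine-rich proteoglycans, Fmod read 7578, 148 and 223 (33.9-fold) and Bgn 6752, 158 and 242 (27.8-fold), both organisers of collagen fibrils, whereas Ogn, of the same family, read 141, 98.1 and 804 and was 5.68-fold brighter. Pcolce2, which helps to trim procollagen, was brighter too, at 614, 2362 and 3333. Of 20 proteases and inhibitors, 11 were dimmer, and only the stromelysin Mmp11 was brighter, at 1234, 937 and 2732, a call lost under quantile normalization.

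**Figure D2:**
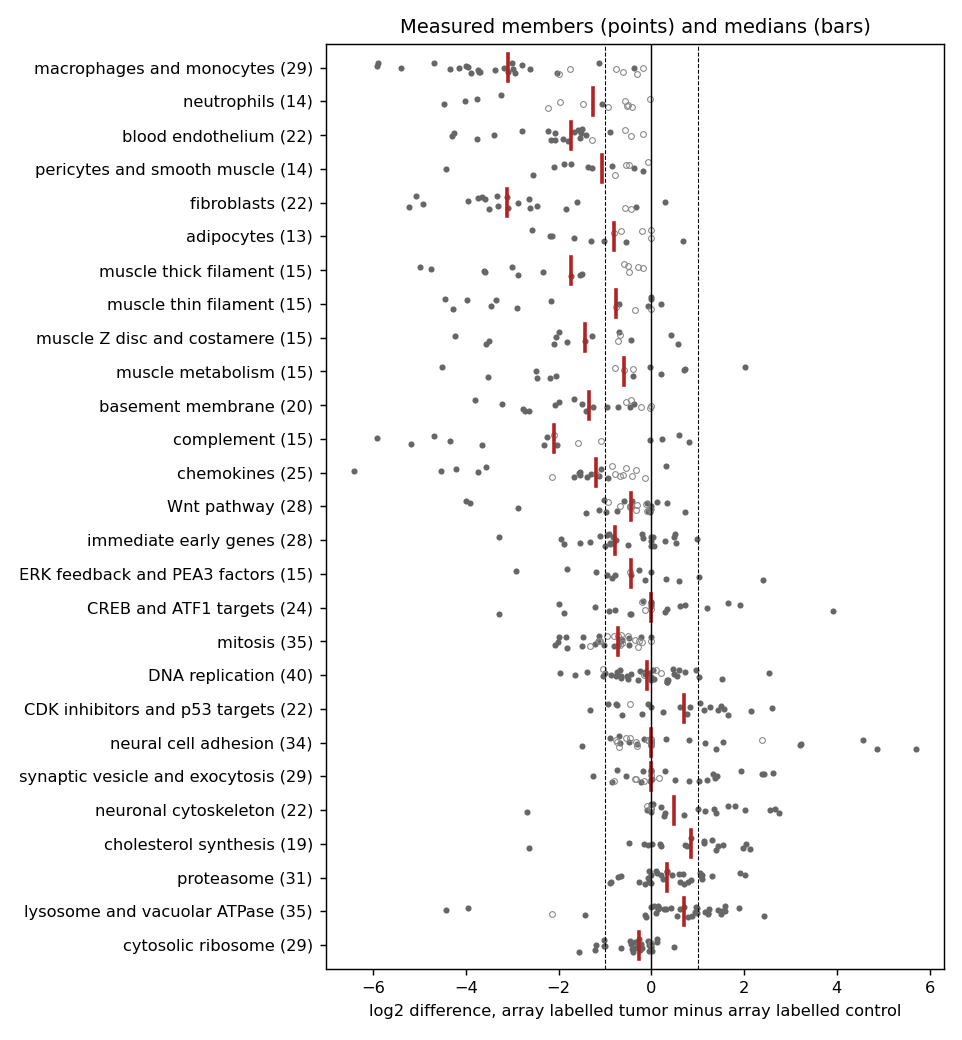
Log2 difference, array labelled tumor minus array labelled control, of every measured member of 27 gene lists (points, filled where the brighter array lies above its own median and open where it does not) and the median over all measured members (red bars), with the number measured in brackets and dashed lines at 2-fold. Macrophage, fibroblast, endothelial, muscle, complement and chemokine members spread to the left of the lines, while neural adhesion, cytoskeleton, cholesterol synthesis and lysosome members reach to the right.

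The array labelled high doxycycline read much like the array labelled tumor and less like the array labelled control, although its label shares a number and the cultured state with control. This held over all 28856 probe sets: log2 intensities correlated across probe sets, which are not replicates, at 0.991 between high doxycycline and tumor, at 0.928 between high doxycycline and control and at 0.917 between tumor and control. The same pairs had exactly equal values for 34.6%, 21.6% and 16.9% of probe sets. Among the tissue lists, medians over all measured members of the difference from control were -2.97 on high doxycycline and -3.08 on tumor for macrophages, -3.09 and -3.10 for fibroblasts, and -1.45 and -1.73 for the thick filament. These pairs share the control array, so that an error of that array would enter both. The mitosis list behaved otherwise, with medians of 0.00 and -0.72. The cause of this order of the arrays was not tested, and with 1 array per label a wrong label and a difference between the samples cannot be told apart.

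**Figure D3:**
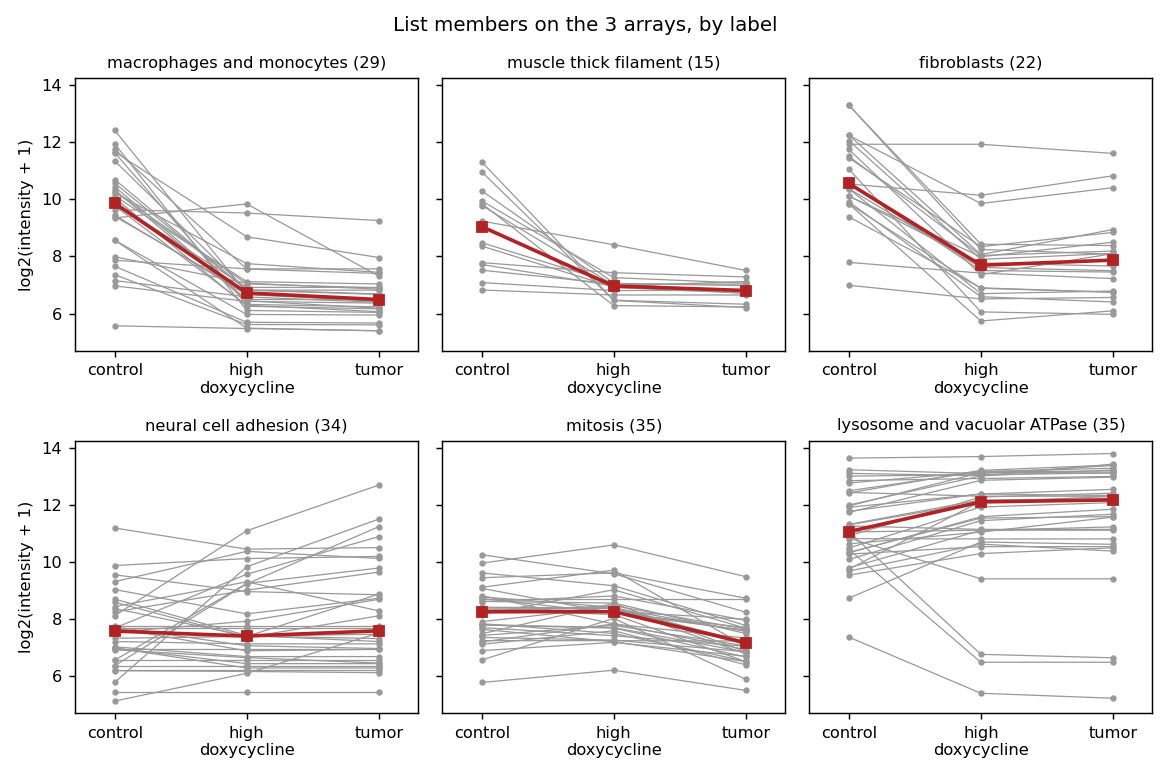
Intensity as log2(intensity + 1) of every measured member of 6 gene lists (grey lines) on the 3 arrays, by label, with the list median in red. The medians of the macrophage, thick filament and fibroblast lists are highest on the array labelled control, that of the mitosis list is lowest on the array labelled tumor, and several neural adhesion members are highest on tumor.

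The fusion partners themselves were close to level. Atf1 read 1189, 1063 and 932 and Ewsr1 read 1659.6, 1649.6 and 1624, log2 differences of -0.35 and -0.03 between tumor and control. Whether these probe sets detect the transgene's transcript is not stated in the sources used here, so that they do not check the induction. Of 16 measured genes of the CREB family, the fusion partners and the coactivators, Creb1, at 549, 1094 and 1264, and Atf2, at 755, 1624 and 1779, were at least 2-fold brighter and none was dimmer. This brighter share lay near the 11.3% of all genes. Of the 15 members that passed the brightness filter, 13.3% were brighter, below the 18.5% of all genes that passed it.

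Fos, the AP-1 subunit that the title of the series names as activated by EWS/ATF1, was dimmer on the array labelled tumor. Fos read 1114, 1234 and 302, a 3.68-fold difference. Fos was thus within 2-fold between control and high doxycycline and lowest on tumor, where it still lay above the array's median. The same held for Nr4a3, an orphan nuclear receptor induced by cyclic AMP, with 3159.5, 3357 and 325 (9.7-fold), and in part for Ier3, with 1399, 1039.8 and 361. Egr1, a zinc finger factor induced by serum, was already dimmer on high doxycycline, at 1088, 569 and 377. Of 28 immediate early genes measured, all bright, 6 were at least 2-fold dimmer on tumor and none brighter, the other 2 being Btg2, at 1196, 521 and 476, and Klf2, at 619.5, 279 and 287, and the call for Klf2 is lost at a common median. Under quantile normalization 10 of the 28 were dimmer. Other members went the other way without passing 2-fold: the AP-1 subunit Jun read 709.7, 421 and 1396, and Nr4a1, a relative of Nr4a3, read 1764, 1955 and 2165.

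Feedback genes of the ERK pathway split. Dusp6, the phosphatase that switches ERK off and is itself induced by ERK, read 3435, 1794 and 455 (7.54-fold dimmer). Spry1, another inhibitor, and Etv4, an ETS factor of the PEA3 family, read 402, 221 and 174 and 602, 310.0 and 169. Etv1, the relative of Etv4, was the opposite, at 293, 729.7 and 1566 and 5.32-fold brighter on tumor, and Phlda1 read 1483, 1579.5 and 3019, a gain that quantile normalization takes below 2-fold. The 15 measured genes of this list therefore held 3 dimmer and 2 brighter members, and the brighter share lay near the 11.3% of all genes.

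Genes that CREB family factors are known to bind also split, 4 brighter and 4 dimmer of 24 measured, with a median of 0.00. The brighter members were mainly secretory granule genes. Scg2, a granin that is cut into the peptide secretoneurin, read 436, 4544 and 6559 (15.0-fold). Chga, the granin chromogranin A, read 2060.3, 6216 and 7807 (3.79-fold), and the prohormone convertase Pcsk1 read 2719.6, 8286 and 8593 (3.16-fold). Rgs2, which shortens G protein signals, read 2252, 2504 and 5153, a call lost under quantile normalization. The dimmer members were Fos, Nr4a3 and the clock genes Per1, at 2287, 527 and 575, and Per2, at 860.0, 299 and 369.7, and the clock genes read within 2-fold of their tumor values on high doxycycline.

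**Figure D4:**
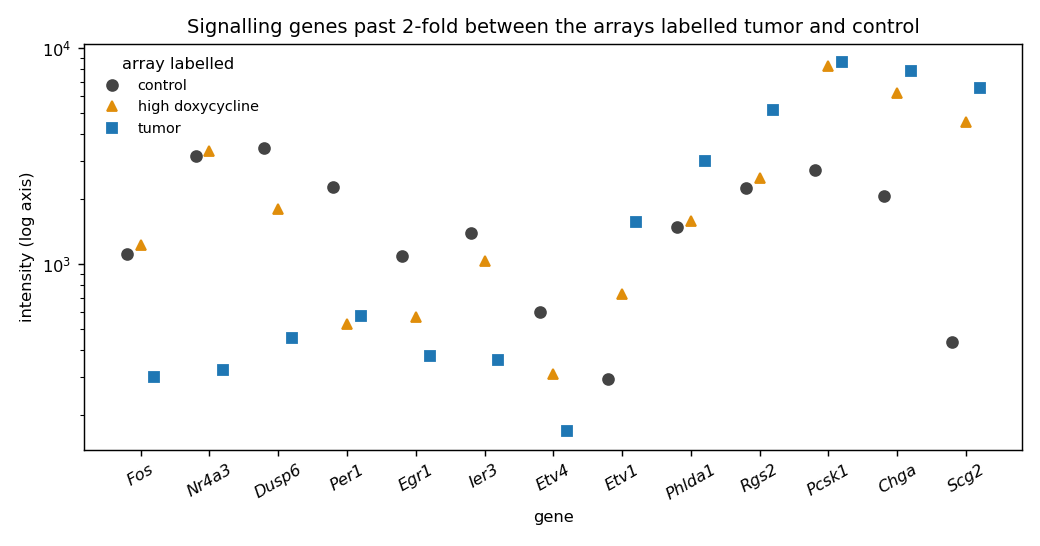
Intensity on a log axis of 13 signalling genes past 2-fold between the arrays labelled tumor and control, on the 3 arrays (1 point per array, no error bars because each label has 1 array). Fos and Nr4a3 are lowest on tumor, Per1 is lower on tumor and high doxycycline than on control, and Scg2, Chga and Pcsk1 are lowest on control.

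Promoters of Fos and of 3 members of the CREB list are shown because they hold the core of the CRE. The 3 have the greatest differences in either direction among members whose promoter holds the core and is in the table. Each runs from 250 bases before to 50 after a RefSeq transcript start of GRCm38.p6, 5′ to 3′ on the strand of the gene, and capitals mark TGACG on either strand (printed as TGACG or CGTCA), the core of the CRE. The sequences are RefSeq's. Per1 has 2 promoters in the table, of which the printed one holds the core.

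Fos, chr12:85473640-85473939, plus strand: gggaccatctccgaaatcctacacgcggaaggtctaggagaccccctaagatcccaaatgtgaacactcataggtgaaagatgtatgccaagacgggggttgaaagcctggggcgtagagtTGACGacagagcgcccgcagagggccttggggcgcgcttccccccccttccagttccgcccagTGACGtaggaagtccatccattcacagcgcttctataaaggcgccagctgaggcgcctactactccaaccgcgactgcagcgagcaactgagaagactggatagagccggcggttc

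Scg2, chr1:79439977-79440276, minus strand: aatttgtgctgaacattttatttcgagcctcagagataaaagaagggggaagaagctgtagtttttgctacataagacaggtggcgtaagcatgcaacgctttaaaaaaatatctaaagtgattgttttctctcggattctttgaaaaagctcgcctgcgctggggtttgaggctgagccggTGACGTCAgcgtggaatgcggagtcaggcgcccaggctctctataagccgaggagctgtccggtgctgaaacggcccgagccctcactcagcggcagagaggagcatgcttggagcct

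Nr4a3, chr4:48045055-48045354, plus strand: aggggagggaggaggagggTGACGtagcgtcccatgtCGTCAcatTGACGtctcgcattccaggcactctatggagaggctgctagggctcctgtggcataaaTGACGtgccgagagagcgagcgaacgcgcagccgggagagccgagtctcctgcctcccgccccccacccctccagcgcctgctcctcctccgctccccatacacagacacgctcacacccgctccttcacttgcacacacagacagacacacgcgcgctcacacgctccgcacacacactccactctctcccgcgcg

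Per1, chr11:69098699-69098998, plus strand: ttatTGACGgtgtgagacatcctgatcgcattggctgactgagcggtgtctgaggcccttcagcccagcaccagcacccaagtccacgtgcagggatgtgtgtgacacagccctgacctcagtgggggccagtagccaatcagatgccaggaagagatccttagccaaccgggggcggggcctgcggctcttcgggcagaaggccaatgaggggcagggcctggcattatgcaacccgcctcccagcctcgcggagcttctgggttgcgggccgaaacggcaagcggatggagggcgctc

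The 3 promoters beside that of Fos were chosen for holding the core, so its presence in them is no result. The Scg2 promoter holds the complete palindrome TGACGTCA, the overlap of TGACG with CGTCA. Fos has 2 cores, Nr4a3 has 4 and Per1 has 1. Among promoters of genes at least 2-fold brighter on tumor, 33.3% held TGACG or CGTCA and 4.01% held TGACGTCA (2271 promoters of 1803 genes). For genes at least 2-fold dimmer the shares were 21.2% and 1.33% (1055 promoters of 863 genes), and for genes within 2-fold they were 30.9% and 2.94% (8960 promoters of 6939 genes). Over all 32851 promoters of the table they were 20.8% and 1.79%. The 3 sets hold only genes that passed the brightness filter, whereas the promoters of the whole table were not filtered, so the genes within 2-fold are the like set. Median GC content was 60.3%, 59.0% and 61.3% in the 3 sets and 52.7% over all promoters, and its part in these shares was not tested. A match describes the letters only and shows no binding.

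Among growth factor pathways, the dimmer genes of the Wnt list included secreted Frizzled-related proteins. Of 28 measured Wnt genes, 6 were dimmer on tumor and none was brighter. Dkk3 of the Dickkopf family read 1910.3, 131 and 118 (16.1-fold). The secreted Frizzled-related proteins Sfrp2, at 2123, 141 and 141 (15.0-fold), and Sfrp4, at 812, 105 and 111 (7.29-fold), were at the same low level on high doxycycline. Sfrp1 of the same family read 1378, 441 and 678, the co-receptor Lrp5 1280.3, 466 and 482 and the ligand Wnt4 982, 605 and 450.5, and the calls for Sfrp1 and Wnt4 are lost at a common median. Wnt4 has 2 probe sets, and the other had a log2 difference of only -0.087.

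The TGF-beta and BMP list moved in both directions, 5 brighter and 8 dimmer of 27. The ligand Tgfb1 was dimmer at 1671, 843 and 809, as were the signal transducer Smad3, at 1908, 494 and 592, and Bmp6, at 3118, 457 and 338. The call for Tgfb1 is lost at a common median. Bmp2, another ligand, was brighter at 382, 2535 and 1946, as was the BMP receptor Bmpr1a, at 949.6, 2682 and 2683. Id2, a target of BMP signalling that blocks differentiation factors, read 2862, 8692 and 12807 (4.47-fold brighter). Under quantile normalization 3 members were brighter. Igfbp3, which binds insulin-like growth factors and is often induced by TGF-beta, stands outside the list and was among the 30 greatest losses, at 6314, 228 and 183 (34.4-fold). Igf1 itself read 1434, 160.0 and 229 (6.24-fold dimmer).

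Growth factor receptors held 3 brighter and 7 dimmer members of 23. The brighter share lay near the 11.3% of all genes, and the dimmer share lay above the 6.82% of all genes. Ngfr, the low-affinity neurotrophin receptor p75 of neural crest cells, read 669, 957 and 4449.6 (6.64-fold brighter), and the hepatocyte growth factor receptor Met read 435, 1868 and 1244. Pdgfra, which fibroblasts carry, read 1102, 253 and 360.4, and Axl, a receptor that binds Gas6, read 2681, 514 and 1088. Fgfr1 was dimmer but stayed bright on all arrays at 5854, 4047 and 2703, a call that is lost at a common median. Among regulators of neural crest and mesenchyme, 5 of 22 were brighter and 2 dimmer. Dlx1, a homeobox gene of neural crest and forebrain, read 169, 1283 and 1458 (8.58-fold) and Twist1, a mesenchymal factor, read 389.9, 1001 and 1232 (3.15-fold), while Zeb2 read 324, 105 and 102. The pigment cell list, which marks the melanocytic features of human clear cell sarcoma, showed little: of 14 genes 6 were bright and only Gpnmb passed 2-fold, dimmer at 1292, 373 and 619, which macrophages also make, and this call is lost at a common median. Mitf, the master factor of pigment cells, read 1281, 1344 and 1018.

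Neural adhesion, cytoskeleton and exocytosis genes had many brighter members. The neural lists held 229 measured genes, of which 51 (22.3%) were brighter and 23 (10.0%) dimmer on tumor, with a median of 0, and 143 of the 229 were bright on at least 1 of the 2 arrays. Ncam2, a neural cell adhesion molecule, showed the greatest gain of all genes used, at 54.3, 909.7 and 2899 (52.5-fold). Lrrc4c, which encodes a netrin-G ligand at synapses, read 81.7, 601 and 2409.6 (29.1-fold), and Alcam, an adhesion molecule of growing axons, read 277, 2183 and 6609 (23.8-fold). For these 3 genes the value on high doxycycline lay between those of control and tumor. Of 34 adhesion genes 9 were brighter, and only Nfasc, which clusters channels at the axon initial segment, was dimmer, at 415, 171 and 148.

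Genes of the neuronal cytoskeleton and of exocytosis were mostly level or brighter. Of 22 cytoskeleton genes 10 were brighter and 1 dimmer, with a median of 0.49. Uchl1, an abundant ubiquitin hydrolase of neurons, read 307, 1929 and 2086 (6.77-fold), and Map2, which stabilises dendritic microtubules, read 391, 1764 and 2318 (5.91-fold). Dpysl5, a collapsin response mediator, was the exception at 1477, 431 and 228. Of 29 genes of synaptic vesicles and exocytosis 9 were brighter, with the SNARE gene Snap25 at 1421, 5542 and 7476 (5.26-fold) and the complexin Cplx1 at 1486, 3249 and 5679 (3.82-fold), and only Sv2c was dimmer, at 1349, 1342 and 562. Uchl1, Map2, Snap25 and Cplx1 were within 2-fold of their tumor level on high doxycycline, while Sv2c was at its control level there.

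The secretory granule and prohormone list had members in both directions, 4 brighter and 6 dimmer of 23. The brighter ones were Scg2, Chga and Pcsk1, given with the CREB targets, and the carboxypeptidase Cpe, which trims prohormones, at 508, 4222 and 5373 (10.6-fold). The dimmer ones included peptide precursors: galanin (Gal) read 2541, 229.8 and 241 (10.5-fold), proenkephalin (Penk) 956, 104 and 92.2 (10.3-fold) and the substance P precursor Tac1 707, 259 and 135 (5.21-fold). Pdyn and Grp, at 244, 132 and 100.2 and 156, 68.2 and 61.2, were dimmer too, but lay under the median of both arrays.

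Ion channels and receptors had members in both directions. The GABA receptor subunit Gabra2 read 175, 4732 and 2697 (15.3-fold brighter on tumor) and was brightest on high doxycycline. P2rx3, an ATP-gated channel of sensory neurons, did the same at 360.0, 4983 and 970.2, but its gain on tumor over control shrinks to a log2 difference of 0.574 when its probe sets are averaged. Its relative P2rx7 was dimmer at 2027, 2490.0 and 797. Cacna2d1, an auxiliary subunit of calcium channels, read 320.0, 1753 and 4488 (14.0-fold brighter). Of 32 potassium and sodium channel genes 4 were brighter, led by Kcnd2, a channel of fast transient currents, at 1023, 2439 and 4096, and 6 dimmer, led by the sodium channel gene Scn7a at 402, 39.2 and 39.5.

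Axon guidance genes differed within a ligand family. Of 36 measured, 6 were brighter and 3 dimmer, and 10 were brighter at a common median. Of the 29 that passed the brightness filter, 20.7% were brighter and 10.3% dimmer, near the 18.5% and 10.2% of all genes that passed it. The semaphorin Sema3c, which repels or attracts growing axons, read 194, 1489 and 3360.0 (17.2-fold), and the repellent Slit2 read 192, 400.1 and 1296 (6.73-fold). The other Slit ligands lay on the opposite side, with Slit1 at 4948, 766 and 683 (7.24-fold dimmer) and Slit3 at 4820.4, 1977 and 1019.9 (4.72-fold dimmer), and Robo2, a Slit receptor, was brighter at 166, 199 and 447.

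Gene families were also counted by name alone. All 22 measured genes of the clustered protocadherins belong to the beta cluster, single-exon adhesion genes by which neurons tell themselves apart. Of these, 11 were at least 2-fold brighter on tumor and none dimmer, with a median of 0.98. Pcdhb9 led with 73.2, 1885 and 1774 (23.9-fold), followed by Pcdhb4 at 109, 1299.6 and 1079.7 and Pcdhb2 at 109, 1099 and 989. These genes are near copies of each other, so that probe sets can share transcripts and the members are not independent. Of 37 Hox genes, which set position along the body axis, 5 were brighter and 2 dimmer, shares near the 11.3% and 6.82% of all genes. The brighter ones all lie in the HoxA cluster: Hoxa10 read 184, 1107 and 1881 (10.2-fold), Hoxa9 227, 961 and 1822 (7.99-fold), and Hoxa5, Hoxa6 and Hoxa13 between 2.01-fold and 2.8-fold. The dimmer ones were Hoxc8, at 735, 162 and 152, and Hoxd8, at 247, 88.2 and 82.8.

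Zinc finger genes named Zfp, many of them repressors of the KRAB type, had 84 brighter and 8 dimmer of 347 measured, with a median of 0.19. Zfp931 read 43.5, 546 and 624 (14.0-fold) and Zfp971 read 339, 3198 and 3318 (9.76-fold), while Zfp36l1, which instead degrades messenger RNA, read 404, 72.9 and 72.9 and was dimmer. Mitochondrial ribosomal proteins, the translation machinery of mitochondria, had 25 brighter and 2 dimmer of 77, with a median of 0.57. Mrpl49 read 601, 2575 and 2680.2 and Mrpl52, an exception, 4451, 1516 and 1280.0.

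**Figure D5:**
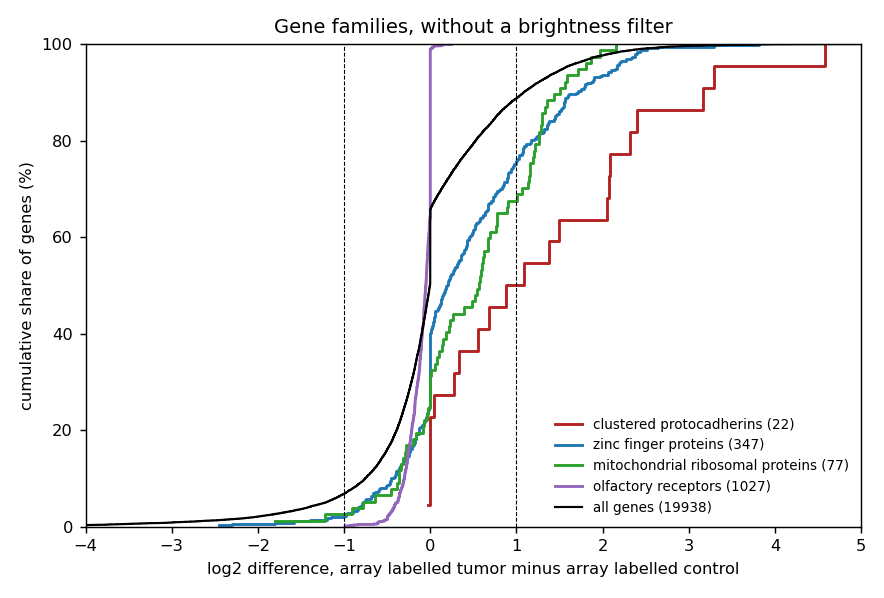
Cumulative share of genes in percent against the log2 difference, array labelled tumor minus array labelled control, for 4 gene families and all 19938 genes without a brightness filter, with dashed lines at 2-fold. The olfactory receptors stay within 2-fold, the mitochondrial ribosomal and zinc finger curves lie to the right of that of all genes over most of the range, and the clustered protocadherins lie furthest right; the step at 0 stands for genes with equal deposited values.

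Mitosis genes were dimmer on tumor, but by their median not on high doxycycline. Of 35 measured genes 14 were at least 2-fold dimmer and none brighter, with a median of -0.72. Ccna2, the cyclin of S phase and early mitosis, read 553, 839.6 and 130.3 (4.22-fold), and the kinase Aurkb, which corrects chromosome attachments, read 1220.2, 768 and 302 (4.04-fold). Mki67, the gene of the proliferation marker Ki-67, read 319, 285 and 90.2. These 3 genes were bright on both arrays labelled as cultures. DNA replication genes did not shift as a group: 3 were brighter and 5 dimmer of 40. Rrm2, the ribonucleotide reductase subunit that limits nucleotide supply in S phase, read 914, 1639 and 234 (3.9-fold dimmer), and Uhrf1, which keeps DNA methylation at replication, read 455, 449 and 145, whereas the clamp loader gene Rfc4 read 149, 1289 and 868 (5.8-fold brighter) and the primase subunit Prim1 163, 679.8 and 468.

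Several inhibitors of the cell cycle were brighter on tumor. Of 22 measured CDK inhibitors and p53 targets, 9 were brighter and only Btg2 was dimmer, with a median of 0.70 against 0.10 for high doxycycline minus control. Cdkn2c (p18), which inhibits CDK4 and CDK6, read 402, 1116 and 2456 (6.09-fold). Cdkn2b (p15) read 645, 706 and 2032 and Cdkn2a, the locus of p16 and p19Arf, 392, 587 and 1164, both brightest on tumor, while Cdkn1b (p27) was about as bright on high doxycycline, at 2749.6, 6124 and 6616. Among p53 targets, Ccng1 read 2319, 4970.4 and 6279 and Ei24 568, 2422 and 2535.

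Many sterol synthesis genes were brighter on tumor than on control, and the list's median was higher still on high doxycycline. Of 19 measured genes 9 were brighter than on control, with a median of 0.86 for tumor and 1.14 for high doxycycline. Idi1, which makes dimethylallyl diphosphate, read 152, 956 and 669.8, the squalene epoxidase Sqle 324, 1363 and 805 and the sterol dehydrogenase Nsdhl 529, 3084 and 2097. Pmvk, the phosphomevalonate kinase, was the only dimmer one, at 3117, 2091 and 498 (6.25-fold). Fatty acid synthesis had 4 brighter of 15, with the elongase Elovl6 at 686, 3062 and 2868 (4.17-fold).

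Lysosome genes were mostly level or brighter, apart from proteases and pump subunits of myeloid cells. Of 35 measured lysosome and vacuolar ATPase genes 11 were brighter and 4 dimmer, with a median of 0.70. The brighter ones include 7 subunits or partners of the proton pump, such as Atp6v1d at 861, 4447 and 4620.2 (5.36-fold) and Atp6v1h at 425, 1662 and 1570.2 (3.69-fold), and the general protease Ctsl at 4079.6, 8281 and 9544. The dimmer ones include Ctsk, the collagen-cutting protease of osteoclasts, at 2137, 108 and 99.1 (21.4-fold), Ctss, a protease of antigen-presenting cells, at 1391, 88.9 and 88.9 (15.5-fold), and the osteoclast pump subunit Atp6v0d2, at 164, 41.3 and 36.5. Acp5, the acid phosphatase of osteoclasts in the cartilage and bone list, was dimmer as well, at 1125, 158 and 128 (8.74-fold), and the alkaline phosphatase Alpl brighter, at 1825, 6162 and 5954.

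Members of general machinery lists past 2-fold are to be read beside the shares of all genes, 11.3% brighter and 6.82% dimmer. Where nearly all members passed the brightness filter, the like shares are 18.5% and 10.2%. The brighter shares of oxidative phosphorylation (11.1%) and ER chaperones (12.5%) lay near that of all genes. All measured members of these 2 lists passed the brightness filter, and both shares lay below the 18.5% of all genes that passed it. All members of the proteasome list passed it too, and 22.6% were brighter. Of the ATF4 members that passed it, 17.4% were brighter. The proteasome had 7 brighter and no dimmer gene of 31, with Psmd14, a deubiquitinating lid subunit, at 944, 4736 and 3836 (4.06-fold), but under quantile normalization these counts were 3 and 2. Oxidative phosphorylation had 4 brighter and no dimmer gene of 36, and 8 brighter at a common median. Its subunit Uqcrb of complex III read 1455, 6559 and 6928 (4.76-fold). Cytosolic ribosomal proteins had 5 dimmer and no brighter gene of 29, and 3 dimmer at a common median, with Rps29 at 8418, 3489 and 2838, and many ribosomal proteins have near-identical processed copies in the genome. Of 25 genes of the ATF4 amino acid response 4 were brighter and 1 dimmer, with the asparagine synthetase Asns at 2486, 8826 and 7851 and Cebpb at 1293, 693 and 522. ER chaperones had 3 brighter of 24, led by Dnajb9, a co-chaperone of BiP, at 279, 2146 and 2674 (9.54-fold). Among 11 reference genes, Hprt of purine salvage and Tfrc, the transferrin receptor, were brighter at 858, 3486 and 3479 and 307, 1398 and 2117, Polr2a of RNA polymerase II was dimmer at 2116, 905 and 925, and Actb read 14505, 16391 and 15915.

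The greatest gains outside the lists included secreted and surface proteins. Nell2, a secreted glycoprotein of neurons, read 226, 4478 and 6292 (27.8-fold). Stc1, the hormone stanniocalcin-1, read 472, 5222 and 7944 (16.8-fold), and Cd24a, a glycoprotein of immature cells, read 700.5, 8916 and 10452 (14.9-fold). Dner, a Notch ligand of neurons, read 517, 3660.2 and 7740.5 (14.9-fold), and Nmbr, the neuromedin B receptor, read 153, 533 and 2109 (13.7-fold). The kinase gene Rps6ka6 of the RSK family, which acts below ERK, read 318, 3049 and 5623 (17.6-fold). Pdcd4, an inhibitor of translation, read 457, 2956 and 6532 (14.3-fold). On high doxycycline each of these 7 genes lay above control and, in all 7, below tumor. Scoc, with 107, 2651 and 2711, depends on the probe set: its log2 difference of 4.65 became 2.276 when its probe sets were averaged.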

How the data were processed

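Total RNA was extracted with the RNeasy Plus Mini kit, biotin-labelled and, per the labels, run on Affymetrix arrays of type MoGene-1_0-st-v1. The authors deposited 1 table with an intensity per probe set on a linear scale for each of 3 arrays. Background correction, probe summary, normalization and build are not given in the sources used here. Symbols came from the platform annotation: 1621 probe sets with several symbols and 5446 with none were left out, and 21698 of 21789 were found by Entrez number in RefSeq (GRCm38.p6). A gene with more than 1 probe set (999 genes) was read from its brightest, by the mean of the arrays.

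Differences were taken between log2(intensity + 1) values computed from the deposited intensities. The added 1 understates folds of dim genes only slightly, since the lowest deposited intensity was 20.7. A gene was counted among the genes used where its value on the brighter array exceeded that array's median (percentile 50), and 2-fold means a log2 difference of at least 1. Lists in the text are counted over all measured members without that filter, while counts and medians under alternatives cover members that passed it. The comparison, the 67 lists and 12 name families (1337 measured entries, 1267 distinct genes) and the alternatives were chosen with earlier results of these data known, and some genes stand in several lists.

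Named genes are Fos, Atf1 and Ewsr1, the 30 greatest gains and losses without provisional and receptor-family symbols, and per list up to 6 members each way past 2-fold. Genes named outside this rule, such as Myod1, Mitf, Jun, Nr4a1, Actb, Xist, the dim list members and family members, were chosen after their values were seen. Alternatives were a common median, quantile normalization, no filter, percentile 75, the mean of probe sets, single probe sets, and pseudocounts of 16 and 64. With 1 array per label no test was run. The computation was tested on simulated data. Python 3.11.15, pandas 2.3.3, numpy 2.4.6 and matplotlib 3.10.9 were used.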

Additional observations from a re-analysis of the deposited data

How the results depend on the processing

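With the filter set at percentile 75, which 6635 genes passed, 691 genes were at least 2-fold dimmer on tumor instead of 1222, since fewer genes were tested. The other 15 of 16 counts over all genes, brighter and dimmer, stayed within 1.5 times the reported ones. Setting the arrays to a common median adds 0.185 to every log2 difference and gave 2764 brighter and 968 dimmer genes, a larger share of brighter calls, and quantile normalization gave 1951 and 1370. Of 567 list medians computed over members that passed the filter, 508 moved by less than 0.384, the median span between probe sets of 1 gene, and 59 by more, 28 of these under the filter at percentile 75 and 22 without a filter. Of 2704 differences of named genes under the alternatives, 2582 moved by less than that span and 122 by more, 109 of them with a pseudocount of 64, and no called difference reversed. Among list counts not given above, fatty acid synthesis had 2 dimmer genes under quantile normalization instead of 0, zinc finger genes 10 instead of 6 among members that passed the filter, and cytosolic ribosomal genes with a single probe set 1 dimmer of 8. No paired analysis was possible because each label has 1 array. The number of arrays limits the precision.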

Other observations

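Genes of the Y chromosome differed between the arrays. Eif2s3y, Kdm5d and Uty, which are made in male cells only, were lowest on control: Eif2s3y read 279, 1643 and 1723, Kdm5d 193, 412 and 450.3 and Uty 178, 929 and 1031 for control, high doxycycline and tumor. Xist, which is made from the inactive X chromosome of female cells, was dim on all 3, at 63.2, 63.2 and 59.7. Fold differences between control and tumor were 6.15, 2.32 and 5.77. The labels do not state the sex of the mice or cell lines, and the control label shares its number with high doxycycline and not with tumor.

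Members of the adipocyte list, chosen after their values were seen, differed on high doxycycline. Ucp1, the uncoupling protein of brown fat, read 306, 2685 and 149.7, and Cidea, a lipid droplet protein of brown fat, read 2569, 3181 and 579.5, so that both were brightest on high doxycycline, whereas Fabp4, a fatty acid carrier of adipocytes and macrophages, read 848, 87.6 and 143. The 2-fold loss of Ucp1 between control and tumor is lost at a common median and under quantile normalization. Interferon-stimulated genes had 3 brighter and 2 dimmer of 20, not far from the 11.3% and 6.82% of all genes, and 11 of the 20 passed the brightness filter. Usp18, which damps interferon signalling, read 382, 3179.7 and 4479.5, Ifit3, an antiviral protein, read 125, 194 and 1328, and Irf7, a factor of the interferon response, read 501, 251 and 238, the last call being lost at a common median. Dsg3, a desmoglein of keratinocytes, was the only 1 of 13 keratinocyte genes past 2-fold, at 123, 918 and 305.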
